A study of Homo sapiens with 7 samples.

Results

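This account describes 10 genes of the antiviral response in RH30 cells, an established cell line of alveolar rhabdomyosarcoma. They are ISG15, the enzymes that attach it to proteins or remove it (UBA7, UBE2L6, HERC5, HERC6 and USP18), and the ADP-ribosylation genes PARP9, DTX3L, PARP14 and PARP12. The 10 genes were taken by symbol from the 57189 genes of the count table, and all 10 were found there. RNAseq counts of 7 samples were compared, 4 from untreated cells (replicates 1 to 4) and 3 from cells exposed for 24 h to BV6 at 5 µM (replicates 2 to 4). BV6 is a Smac mimetic, a small molecule that binds and antagonizes inhibitor of apoptosis proteins. All samples carry the genotype label wt, and the study's methods state that the cell lines expressed GFP and luciferase. The replicate number stands for the BC label in the sample titles, so that BV6 replicates 2, 3 and 4 each share a label with an untreated sample, whereas untreated replicate 1 has no BV6 partner. The sources used here do not give the meaning of this label.

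ISG15 is a ubiquitin-like protein that interferon strongly induces. It is activated by UBA7 (E1), passed to UBE2L6 (E2) and joined to target proteins by the ligase HERC5, while the protease USP18 removes it again and also restrains signaling at the interferon receptor subunit IFNAR2. PARP9 binds the ubiquitin ligase DTX3L, and this complex, like the mono-ADP-ribosyltransferases PARP14 and PARP12, belongs to the interferon-induced antiviral proteins. Interferon-induced genes are typically switched on through the interferon-stimulated response element (ISRE), a DNA motif bound by STAT and IRF transcription factors.

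The ISRE was searched in RefSeq promoter windows (GRCh38.p14, 250 bases before to 50 bases after a start site) because it is the element these genes are best known for. The motif was spelled GAAANNGAAA and read on both strands. Of the 10 genes, 8 had a promoter window, with 10 windows between them. A match was held by 6 of these 10 windows, which belong to 6 genes (ISG15, HERC5, PARP9, DTX3L, PARP14 and PARP12). UBA7 and USP18 were not matched to a window. Over all 35116 windows, 3.57% held the motif. A match is a description of the letters and not a bound site. In the 3 stretches below, the motif lies before a start site of the modifier gene, at the start of DTX3L, and before PARP14. At DTX3L it overlaps PARP9 on the other strand. Each stretch is 100 bases long, from the plus strand, with the ISRE match in capitals, at chr1:1013347-1013446, chr3:122564288-122564387 and chr3:122680739-122680838.
ISG15: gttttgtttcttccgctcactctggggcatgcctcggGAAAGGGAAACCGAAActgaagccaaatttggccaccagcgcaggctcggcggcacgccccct
PARP9 and DTX3L: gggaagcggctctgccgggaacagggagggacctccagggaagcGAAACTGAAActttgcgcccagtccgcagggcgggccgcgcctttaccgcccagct
PARP14: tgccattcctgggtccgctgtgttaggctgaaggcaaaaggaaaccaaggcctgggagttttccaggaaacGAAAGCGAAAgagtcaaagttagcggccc

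In ISG15, 2 matches overlapped each other, and the nearer of them began 107 bases before the start site. PARP9 and DTX3L shared a single match at chr3:122564332-122564341, which began 41 bases before a PARP9 start site on the minus strand and 6 bases before the DTX3L start site on the plus strand. The PARP14 match began 29 bases before the start site. The GAS motif of interferon-induced genes, spelled TTCNNNGAA and found in 7.66% of all windows, was present in the window of PARP14 and of no other of these genes. The NF-κB consensus motif, found in 5.91% of all windows, was in none of the 10 windows that belong to the 8 genes, which says nothing about NF-κB binding elsewhere.

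The deposited counts summed to between 54070030 and 77220882 per sample. Levels are given as CPM, counts scaled to TMM-normalized library sizes, on which 3 counts, the smallest number taken as detected, correspond to 0.0389 to 0.0557 CPM. This floor covers counting error only. Whether the mates of a read pair were counted separately is not stated in the sources used here. Every sum of counts exceeded the highest number of reads per library that the study's methods report. On average, a count thus stood for less than 1 sequenced read or pair. Of the counts from 1 to 10, 58.8% to 62.8% were even. The floor may therefore stand for fewer fragments than its 3 counts. Of the rhabdomyosarcoma markers, MYOD1, MYOG, DES, FGFR4 and MYCN had at least 783 counts in every sample, whereas TFAP2B (1 to 6 counts) and CDH3 (3 to 15 counts) were at or near the floor. The summed level of 8 leukocyte marker genes was 20.1 to 26.8 CPM in untreated and 14.9 to 27.7 CPM in BV6-treated samples and came mostly from CSF1R and NKG7, while PTPRC, the pan-leukocyte gene, had 11 to 58 counts. Of 5 leukocyte markers with enough counts to be tested, 0 passed with edgeR (0 at an unadjusted p below 0.05, 0 with DESeq2). The 3 endothelial markers summed to 48.9 to 69.3 CPM in untreated and 26.4 to 58.5 CPM in BV6-treated samples, mostly from PECAM1, whereas CDH5 had 5 to 16 counts. PECAM1 (log2 fold change -0.56) and VWF (0.86) each had an unadjusted p below 0.05 and did not pass (adjusted p = 0.586 and 0.415, edgeR). Of the 5 tested rhabdomyosarcoma markers, 4 had a log2 fold change below 0 (median -0.44), 1 had an unadjusted p below 0.05 (FGFR4, -0.73) and 0 passed with edgeR or DESeq2. DES, FGFR4 and PECAM1 were called as lower with the GC correction and the replicate block together. The part of these markers in the results was not tested. BV6 replicate 3 stood apart most in its dependence on GC content, and untreated replicate 1 stood apart in the other direction. Genes with 61.4% GC differed in BV6 replicate 3 by -0.748 on the log2 scale from genes with 38.6% GC, relative to the mean of all samples. In untreated replicate 1 this difference was 0.54, and in the remaining samples it lay between -0.0833 and 0.168. Results are therefore also given without BV6 replicate 3 and after a correction for GC content. The study speaks of biological replicates, but no source used here says that they came from separate cultures, so p-values measure only the spread between these samples.

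With BV6, transcripts of the E1 gene UBA7 (1.96-fold) and of the ADP-ribosyltransferase gene PARP14 (1.90-fold) rose. The other 7 genes that entered the test did not pass, including ISG15 itself, which varied widely between BV6-treated samples, and PARP12 had too few counts to enter it. In RNA from whole cultures, more expressing cells and more RNA per cell cannot be told apart. Among 9 genes with enough counts to be tested, 2 were called as higher and 0 as lower at an adjusted p below 0.05 (edgeR's quasi-likelihood test, Benjamini-Hochberg over 23124 genes). Leaving out a single sample took the number of calls to 0 in 5 of 7 fits, to 1 in another and left it at 2 without BV6 replicate 3. Over all tested genes, 0.394% were called as higher and 0.0562% as lower. At an unadjusted p below 0.05, 4 of the 9 were higher (UBA7, USP18, DTX3L and PARP14) and 0 lower, against 4.13% of all tested genes that were higher. The median log2 fold change of the 9 genes was 0.51, and that of all tested genes was -0.014. In 4 genes, the same 4, every BV6 sample lay above every untreated sample, a pattern that 4.94% of all tested genes showed.

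**Figure D1:**
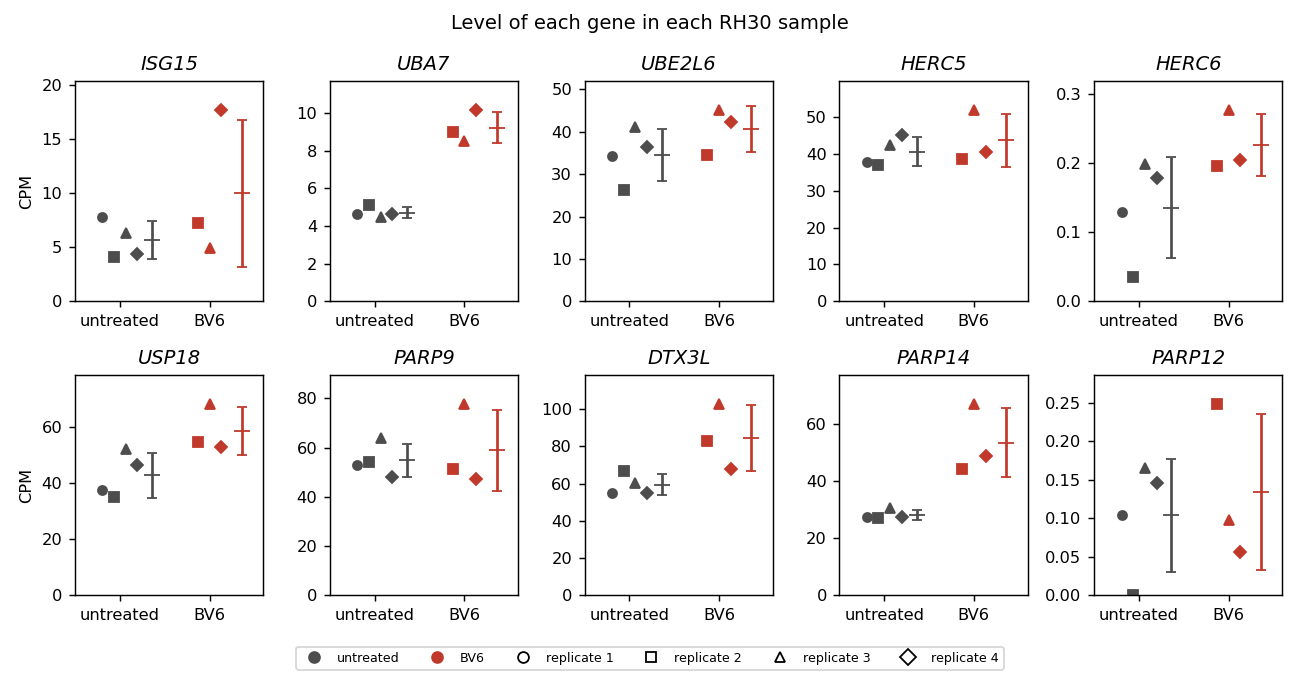
Level of the 10 genes in CPM (y axis, from 0, with a separate scale for each gene) in untreated (grey) and BV6-treated (red) RH30 samples, with the replicate number given by the marker shape and the mean with SD (n = 4 and n = 3) at the right of each group. The BV6 samples lay above all untreated samples for UBA7, USP18, DTX3L and PARP14, and HERC6 and PARP12 stayed below 0.3 CPM.

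To compare levels between genes, CPM was divided by the exonic length of each gene in kb (GENCODE release 44, all isoforms merged). The counting used another release (Ensembl 95), and merged lengths depend on the annotated isoforms, so that close ranks may shift with the annotation. In untreated cells, UBE2L6 had the highest level per length, at 16.7 ± 2.99 CPM per kb (SD, n = 4). USP18 (10.4 ± 1.95), DTX3L (10.3 ± 0.985), HERC5 (8.51 ± 0.818), ISG15 (6.53 ± 2.02) and PARP9 (6.12 ± 0.729) followed. PARP14 (2.73 ± 0.156) and UBA7 (1.04 ± 0.0638) were lower, and HERC6 (0.0235 ± 0.0126) and PARP12 (0.0188 ± 0.0134) were lowest. Among neighbors in this order, the untreated samples overlapped between UBE2L6 and USP18, USP18 and DTX3L, HERC5 and ISG15, ISG15 and PARP9, and HERC6 and PARP12. They did not overlap between DTX3L and HERC5 (lowest 9.52 and highest 9.49 CPM per kb), PARP9 and PARP14, PARP14 and UBA7, or UBA7 and HERC6. The E1 of the pathway therefore had the lowest level per length among the conjugation genes that were well above the floor.

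ISG15, the modifier itself, spans 1001138 to 1014540 of chromosome 1 in GENCODE. The RefSeq promoter window used above (1013247 to 1013546) lies inside this span, at a later start site. ISG15 had 7.83, 4.1, 6.32 and 4.38 CPM in untreated replicates 1 to 4. In BV6 replicates 2, 3 and 4 it had 7.27, 4.96 and 17.7 CPM. The highest value belonged to BV6 replicate 4, and the other BV6 samples lay within the range of the untreated ones. Mean ISG15 was 5.66 ± 1.75 CPM (SD) in the 4 untreated and 9.97 ± 6.78 CPM in the 3 BV6 samples, and the log2 fold change, 0.81 ± 0.404 (SE), did not pass (adjusted p = 0.638, edgeR, Benjamini-Hochberg). Within replicate numbers 2, 3 and 4, the log2 ratio of BV6 to untreated was 0.83, -0.35 and 2.01, so that the direction itself differed between same-numbered samples. Leaving out BV6 replicate 4 lowered the log2 fold change to 0.10, and leaving out BV6 replicate 3 raised it to 1.14. After the GC correction combined with the replicate block, which was added with the data in view, the log2 fold change was 1.00 and passed (adjusted p = 0.0221, edgeR).

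UBA7, the E1 enzyme that activates ISG15 (chromosome 3, 49805209 to 49813953), had 4.62, 5.13, 4.46 and 4.62 CPM in untreated replicates 1 to 4. It had 8.97, 8.54 and 10.2 CPM in BV6 replicates 2, 3 and 4. All 3 BV6 samples were clearly above the narrow range of the untreated samples. UBA7 rose from 4.71 ± 0.29 CPM (SD) in 4 untreated samples to 9.23 ± 0.847 CPM in 3 BV6 samples, a 1.96-fold change (log2 fold change 0.97 ± 0.142 SE, adjusted p = 0.0232, edgeR, Benjamini-Hochberg). The log2 ratio was 0.81, 0.94 and 1.14 within replicate numbers 2, 3 and 4. With the DESeq2 Wald test, the adjusted p was 1.58e-07. The size of the change held when each sample was left out in turn (log2 fold change 0.89 to 1.03). The call did not, since the adjusted p was 0.0892, 0.0513, 0.103 and 0.0838 without untreated replicates 1, 2, 3 and 4 and 0.0633 and 0.0987 without BV6 replicates 2 and 4 (edgeR). Without BV6 replicate 3 it was 0.0351. In GENCODE, 109 of the exonic bases of UBA7 also belong to the microRNA gene MIR5193 on the same strand.

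UBE2L6, the E2 enzyme (chromosome 11, 57551656 to 57568284), had 34.2, 26.3, 41.1 and 36.4 CPM in untreated and 34.5, 45.2 and 42.2 CPM in BV6-treated cells. The groups overlapped. The log2 fold change was 0.24 ± 0.164 (SE, adjusted p = 0.745, edgeR, Benjamini-Hochberg), although BV6 was higher within each of the 3 same-numbered pairs, with log2 ratios of 0.39, 0.14 and 0.21. UBE2L3 and UBA1, the closest relatives of UBE2L6 and UBA7, which serve ubiquitin itself, had log2 fold changes of -0.06 and -0.15 (adjusted p = 0.892 and 0.789, edgeR). The rise of UBA7 thus had no counterpart past the threshold in UBA1. UBA6, another E1 of ubiquitin, had a log2 fold change of 0.18 and did not pass (adjusted p = 0.712, edgeR). Its BV6 samples (83.4 to 84 CPM) lay just above its untreated samples (63.6 to 82.8 CPM).

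HERC5, the main ISG15 ligase of human cells (chromosome 4, 88457119 to 88506163), ranged from 37.1 to 45.2 CPM in untreated samples. In BV6 replicates 2, 3 and 4 it had 38.6, 51.9 and 40.5 CPM, so that a single BV6 sample was above the untreated range. The log2 fold change was 0.11 ± 0.137 (SE, adjusted p = 0.854, edgeR, Benjamini-Hochberg), and it turned to -0.03 without BV6 replicate 3. HERC6, its neighbor 14022 bases away and the ligase that serves ISG15 in the mouse, had only 10, 2, 12 and 11 counts in untreated replicates 1 to 4. BV6 replicates 2, 3 and 4 had 11, 17 and 11 counts. In CPM the groups overlapped, and the log2 fold change of 0.72 ± 0.51 (SE) did not pass (adjusted p = 0.75, edgeR). The count of HERC6 was thus below 1% of that of HERC5 in all 7 samples.

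USP18, which cleaves ISG15 from proteins (chromosome 22, 18150118 to 18177397), had 37.6, 34.9, 52.2 and 46.4 CPM in untreated replicates 1 to 4. In BV6 replicates 2, 3 and 4 it had 54.6, 68.4 and 52.9 CPM. The groups did not overlap, but the lowest BV6 sample was only just above the highest untreated one. The means were 42.8 ± 7.97 CPM (SD, n = 4) and 58.6 ± 8.49 CPM (SD, n = 3), a 1.37-fold difference that did not pass (log2 fold change 0.45 ± 0.162 SE, adjusted p = 0.468, edgeR, Benjamini-Hochberg). Within replicate numbers 2, 3 and 4, the log2 ratio was 0.65, 0.39 and 0.19. USP18 passed with the GC correction and the replicate block together, a setting added with the data in view (log2 fold change 0.38, adjusted p = 0.0193, edgeR). USP41, a near-identical copy of USP18 on the same chromosome, had 545 to 968 counts, and the split of reads between these genes is uncertain. USP41 had a log2 fold change of 0.30 (adjusted p = 0.708, edgeR).

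**Figure D2:**
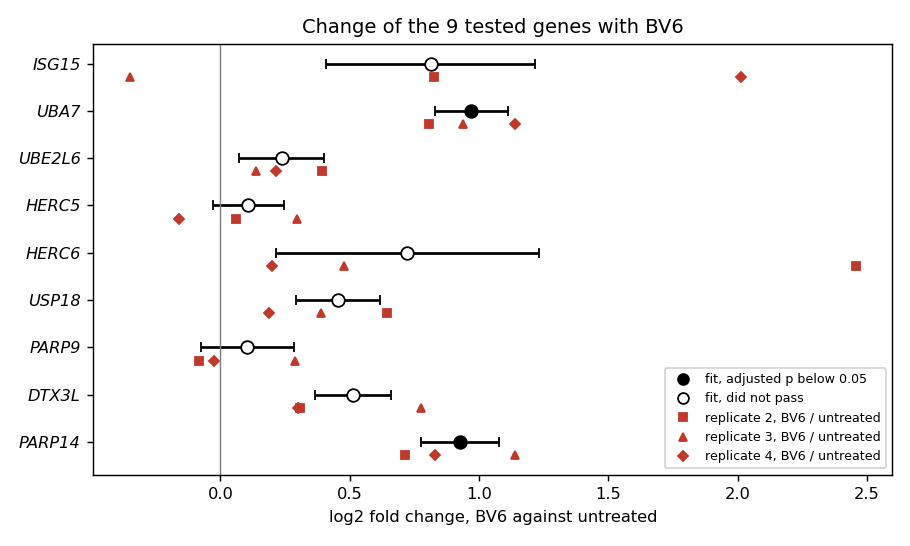
Log2 fold change of BV6 against untreated for the 9 tested genes (x axis), as fitted over all 7 samples (black circles with standard error, filled where the adjusted p was below 0.05) and as the log2 ratio within replicate numbers 2, 3 and 4 (red markers). UBA7 and PARP14 were above 0.7 for all 3 replicate numbers, whereas ISG15 ranged from -0.35 to 2.01.

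PARP9, DTX3L and PARP14 lie close together on chromosome 3 (122527924 to 122564577, 122564338 to 122575203 and 122680839 to 122730840). PARP9 is transcribed from the minus strand and the others from the plus strand. Over all annotated isoforms, exons of PARP9 and DTX3L overlap, with 139 shared exonic bases on opposite strands (1.56% of PARP9 and 2.41% of DTX3L). The sources used here do not state whether the counting used strand.

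PARP14, a mono-ADP-ribosyltransferase with ADP-ribose-binding macrodomains, had 27.4, 26.9, 30.4 and 27.4 CPM in untreated replicates 1 to 4. In BV6 replicates 2, 3 and 4 it had 44.1, 67 and 48.8 CPM. All BV6 samples were far above the untreated samples, with replicate 3 the highest. PARP14 rose from 28 ± 1.61 CPM (SD) in 4 untreated samples to 53.3 ± 12.1 CPM in 3 BV6 samples, a 1.90-fold change (log2 fold change 0.93 ± 0.15 SE, adjusted p = 0.0363, edgeR, Benjamini-Hochberg). Log2 ratios of 0.71, 1.14 and 0.83 were found within replicate numbers 2, 3 and 4. With the DESeq2 Wald test, the adjusted p was 6.53e-05. Without BV6 replicates 2 or 3, PARP14 still passed (adjusted p = 0.038 and 0.0455, edgeR), with a log2 fold change of 0.73 in the absence of replicate 3. It lost its call without BV6 replicate 4 (0.0976) and without untreated replicates 1, 2, 3 and 4 (0.147, 0.116, 0.103 and 0.119, edgeR). UBA7 and PARP14 were both called after the GC correction, which was added with the data in view (adjusted p = 0.00641 and 0.0071, edgeR). Their log2 fold changes were then 1.11 and 0.85, against 0.97 and 0.93 without it. Their transcripts have a GC content of 58.2% and 42.4%.

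DTX3L, the ubiquitin ligase that partners with PARP9, had 54.9, 67, 60.2 and 55.2 CPM in untreated replicates 1 to 4. BV6 replicates 2, 3 and 4 had 82.9, 103 and 67.9 CPM. The groups were separate, with BV6 replicate 4 just above untreated replicate 2. Mean DTX3L was 59.3 ± 5.68 CPM (SD) over the 4 untreated and 84.6 ± 17.6 CPM over the 3 BV6 samples. The 1.43-fold difference did not pass (log2 fold change 0.51 ± 0.148 SE, adjusted p = 0.288, edgeR, Benjamini-Hochberg). DTX3L passed with the GC correction and the replicate block together (log2 fold change 0.44, adjusted p = 0.0117, edgeR). That setting was added with the data in view and called 1155 genes, against 104 in the main test.

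PARP9, which shares the promoter region with DTX3L, had 52.8, 54.2, 63.7 and 48.2 CPM in untreated replicates 1 to 4 and 51.2, 77.9 and 47.4 CPM in BV6 replicates 2, 3 and 4. The groups overlapped, and BV6 replicate 4 was the lowest of all 7 samples. The log2 fold change was 0.10 ± 0.18 (SE, adjusted p = 0.897, edgeR, Benjamini-Hochberg) and became -0.15 without BV6 replicate 3.

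The relative counts of these neighboring genes were compared within each sample, which does not depend on the library size. The log2 ratio of PARP9 to DTX3L counts was -0.06, -0.31, 0.08 and -0.19 in untreated replicates 1 to 4. With BV6, it was -0.70, -0.40 and -0.52 in replicates 2, 3 and 4. All BV6 samples were below all untreated samples, and the ratio fell by 0.42 on the log2 scale. The log2 ratio of PARP14 to PARP9 went from -0.96 ± 0.108 (SD, n = 4) to -0.13 ± 0.149 (SD, n = 3), a difference of 0.83, again without overlap. For HERC6 to HERC5 the difference was 0.81, but it rests on 2 to 17 counts of HERC6 and shrank to 0.51 with a larger pseudocount. Each of the 3 ratios gave p = 0.0571 in an exact two-sided permutation test, unadjusted and after Benjamini-Hochberg adjustment over the 3, which is the smallest p that 4 against 3 samples can give. A p below 0.05 could therefore not be reached.

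**Figure D3:**
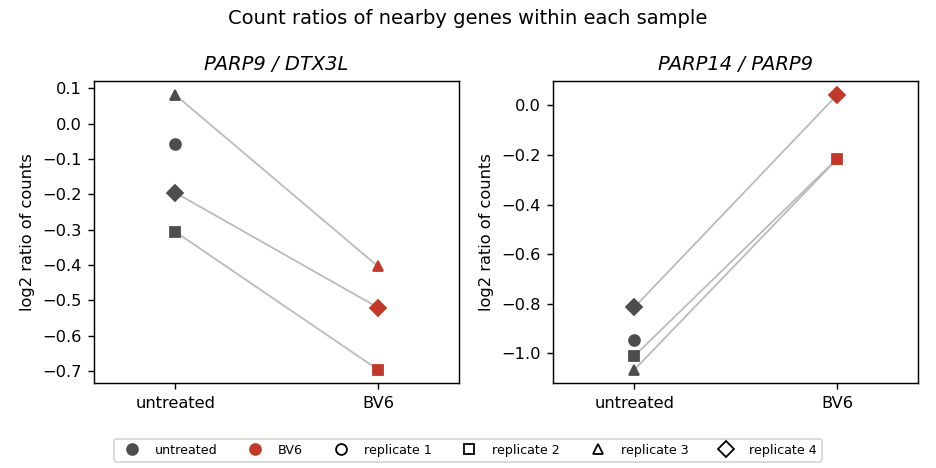
Log2 ratio of deposited counts (y axis, not starting at 0) of PARP9 to DTX3L (left) and of PARP14 to PARP9 (right) in each sample, with grey lines joining samples of the same replicate number. With BV6, the left ratio was lower and the right one higher for all 3 replicate numbers, without overlap of the groups, and the BV6 points of replicates 2 and 3 coincide at the right (-0.21 and -0.22).

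PARP12, a mono-ADP-ribosyltransferase with zinc fingers (chromosome 7, 140023749 to 140062951), was barely expressed. It had 8, 0, 10 and 9 counts in untreated replicates 1 to 4 and 14, 6 and 3 counts in BV6 replicates 2, 3 and 4. These counts did not pass the filter on low counts, and the groups overlapped. PARP12 was not called without that filter (edgeR) or with DESeq2. PARP12 and HERC6 were thus close to the floor in this cell line with and without BV6.

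The change of UBA7 and PARP14 was then set beside related genes, from lists written by hand. Of all 23124 tested genes, 104 were called and 1939 had an unadjusted p below 0.05 (edgeR). In lists this short, 0 calls are near that share and do not set UBA7 and PARP14 apart from the related genes. Among 17 other enzymes of ubiquitin-like conjugation (for ubiquitin, SUMO, NEDD8, UFM1, URM1 and the autophagy conjugates), 0 passed in either direction with edgeR (1 at an unadjusted p below 0.05, 0 with DESeq2), and their median log2 fold change was 0.06. The largest value was that of ATG7, the autophagy E1 (0.32, adjusted p = 0.487, edgeR). Of 4 other HERC ligases, 0 passed with edgeR and 0 had an unadjusted p below 0.05 (DESeq2 0), with a median of 0.02 and the largest value in HERC4 (0.16). Among 11 other ISG15 ligases, proteases and partners, 0 passed with edgeR (3 at an unadjusted p below 0.05, 0 with DESeq2), with a median of 0.11. Of these 3, IFNAR2 was higher, whereas SKP2 (log2 fold change -0.28) and ITGB2 were lower. ITGAL, a subunit of the receptor for secreted ISG15, had the largest value (0.72) at 12 to 43 counts. ITGB2, the other subunit of that receptor, went the other way (-0.56, adjusted p = 0.559, edgeR) at 1064 to 3389 counts. IFNAR2, the receptor subunit that USP18 binds, had 78.4 to 98.2 CPM in untreated and 115 to 132 CPM in BV6-treated samples, without overlap and without passing (log2 fold change 0.45, adjusted p = 0.193, edgeR).

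Of 14 other PARP family genes, 13 were tested and 0 passed with edgeR (1 at an unadjusted p below 0.05), and their median log2 fold change was 0.11. ZC3HAV1, which encodes the antiviral protein ZAP, had the largest value. It had 54.6 to 58 CPM in untreated and 73.3 to 97.6 CPM in BV6-treated samples, without overlap (log2 fold change 0.53 ± 0.121 SE, adjusted p = 0.152, edgeR). It was the PARP gene outside the 10 that the DESeq2 Wald test called (adjusted p = 0.0373). Of 6 ADP-ribose hydrolases, 0 passed with edgeR (1 at an unadjusted p below 0.05, 0 with DESeq2). MACROD2 had the largest value (1.04, adjusted p = 0.643, edgeR) at 13 to 97 counts. PARP15, which lies between DTX3L and PARP14, had 3 to 10 counts and was not tested.

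Of the other Deltex ligases, relatives of DTX3L, 3 of 4 were tested and DTX4 passed. DTX4 had 79.4, 81.4, 64.2 and 64.8 CPM in untreated replicates 1 to 4 and 158, 136 and 130 CPM in BV6 replicates 2, 3 and 4. The groups were far apart. DTX4 rose 1.95-fold (log2 fold change 0.96 ± 0.127 SE, adjusted p = 0.0132, edgeR, Benjamini-Hochberg). It lost its call without BV6 replicate 2 (0.0501) and without untreated replicates 3 or 4 (0.0629 and 0.0579, edgeR).

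Among 15 genes of interferon signaling, 12 had a log2 fold change above 0 (47.7% of all tested genes did) and 3 below, with a median of 0.19, and IRF1 passed (log2 fold change 1.07, adjusted p = 0.0478, edgeR). At an unadjusted p below 0.05, 4 of the 15 were higher and 0 lower, against 4.13% of all tested genes that were higher. In 4 of the 15, every BV6 sample lay above every untreated sample, against 4.94% of all tested genes. Both numbers were 4 of 9 among the ISG15 and PARP9-DTX3L genes, a larger share that rests on the same 4 genes. This difference between the lists was not tested, and both lists were chosen with earlier results of these data known. IRF1 is a transcription factor that binds the ISRE. It had 14.9 to 22 CPM in untreated and 30.2 to 46.1 CPM in BV6-treated samples. Its call was lost in all fits that left out a sample except the one without untreated replicate 2 (adjusted p = 0.0408 there, at most 0.168 otherwise, edgeR), and with RLE normalization (0.0522). The transcription factor genes STAT2 and IRF9 did not pass, with log2 fold changes of 0.32 and 0.03 (adjusted p = 0.689 and 0.965, edgeR). The 21 interferon genes all failed the filter on low counts, and of 20 that were tested without it, 0 passed with edgeR or with DESeq2 (1 at an unadjusted p below 0.05 with each). They had 0 to 13 counts in untreated and 0 to 14 counts in BV6-treated samples, and IFNB1, the gene of interferon-β, had 0 counts in all 7, which allows up to 0.0389 to 0.0557 CPM.

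**Figure D4:**
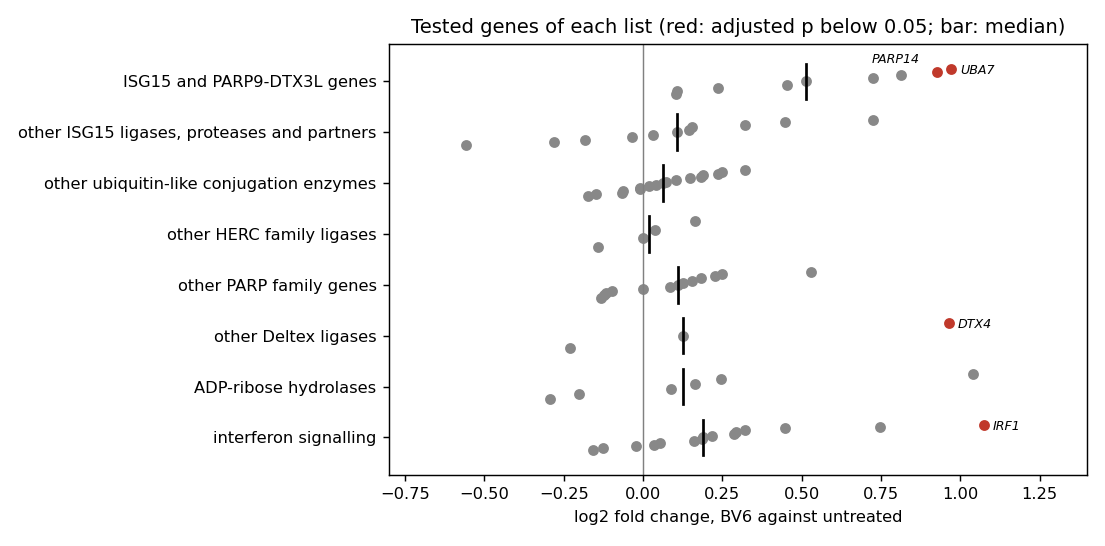
Log2 fold change of BV6 against untreated (x axis) for every tested gene of 8 lists, with genes at an adjusted p below 0.05 in red and the list median as a black bar. Only UBA7, PARP14, DTX4 and IRF1 passed among the genes drawn, and the list medians other than that of the ISG15 and PARP9-DTX3L genes lay between 0.02 and 0.19.

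Of 40 other protein-coding genes within 100 kb of the 10 genes, 33 were tested and 0 passed (edgeR, 0 at an unadjusted p below 0.05, 0 with DESeq2). Over all tested genes, 0.394% were called as higher and 0.0562% as lower, so that 0 calls among 33 genes are near that share. An unadjusted p below 0.05 was found in 1939 of the 23124 tested genes (edgeR). The median log2 fold change of the 33 was -0.05, and 11 of them were above 0, against 47.7% of all tested genes.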

How the data were processed

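RNAseq of 7 RH30 samples, 4 untreated and 3 treated with BV6, was used. The authors deposited raw counts per gene, from strand-specific mRNA libraries read from both ends. The genome (GRCh38) and the aligner (STAR 2.6.1d) are those of the submitters' processing notes, and isoforms of each Ensembl gene (release 95) were merged for counting. Counting program and strand setting are not given in the sources used here.

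In R 4.3.3, edgeR 4.0.16 was run on the deposited counts (filterByExpr with a minimum count of 10, TMM, glmQLFit and glmQLFTest, condition only) with Benjamini-Hochberg adjustment over 23124 genes. Standard errors were derived from the fold change and its F statistic. DESeq2 1.42.0 was run on all genes with a count. Count ratios used a pseudocount of 0.5, or 5 as an alternative, and exact permutation tests (scipy 1.17.1). Alternatives also were RLE factors, other filters, the replicate block, halved counts, leaving out each sample and, chosen after the data were seen, a loess correction for GC content (span 0.5). Scripts were tested on simulated data. Coordinates and lengths are from GENCODE release 44, which matched 36611 symbols.

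The 10 genes and the lists were chosen with earlier results of these data known. Named are the 10 genes, list genes past the threshold, the tested gene with the largest change in each list, and close relatives. IFNAR2, ITGB2, SKP2, STAT2, IRF9, UBA6, PARP15, ZC3HAV1 and IFNB1 are named in addition, after their values were seen.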

Additional observations from a re-analysis of the deposited data

Results flagged for a closer look

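For PARP14, untreated replicate 3 (30.4 CPM) lay far from the other 3 untreated samples (26.9 to 27.4 CPM), with a gap that filled 0.854 of the range of the group, above Dixon's critical value for 4 samples. Among the 12 genes screened (the 10 genes, DTX4 and IRF1), this was the only such case, and chance gives about 1 in 20 groups. The BV6 samples (44.1 to 67 CPM) lay above that value as well.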

How the results depend on the processing

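The number of genes called among all tested genes was 104 with edgeR. It was 242 without a filter on low counts, 401 with the DESeq2 Wald test, 205 with the GC correction, and 38 to 89 when a sample was left out. With the replicate block it was 218, with the block on the 3 complete pairs 341, and with the GC correction and the replicate block together 1155. Of the 10 genes, UBA7 and PARP14 were called in the main test and under all these settings except those that left out a sample (0 to 2 called, and 0 in 5 of 7), and with the GC correction and the replicate block ISG15, USP18 and DTX3L were called too (5 in all). The latter setting also called IFNAR2, ITGB2, SKP2, STAT2, ATG7, ZC3HAV1 and DTX3 among the related genes, none of which the main test called. There, ITGB2 (log2 fold change -0.41) and SKP2 (-0.33) were lower with BV6. ZC3HAV1 was also called with the GC correction alone and with DESeq2. The log2 fold change of HERC5 (0.11) was -0.032 and that of PARP9 (0.10) was -0.15 without BV6 replicate 3, and without any other sample both stayed above 0 (up to 0.20 and 0.24). The cause was not tested. The other 149 of 151 values of single genes among the 10 kept their direction. The replicate block alone changed no call among the 10 genes. Deviations from the group means correlated across genes by 0.462, 0.438 and 0.0847 between same-numbered samples 2, 3 and 4, and BV6 replicate 4 correlated best with untreated replicate 1 (0.278), so that the label does not clearly pair all samples. Within pairs, the count ratios changed by -0.40 (PARP9 to DTX3L), 0.83 (PARP14 to PARP9) and 0.89 (HERC6 to HERC5). Low counts limit what can be said on HERC6 and PARP12.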
